A study of Mus musculus with 6 samples.

Results

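RNA polymerase II transcribes the protein-coding genes, and the general transcription factors bring it to their start sites. The genes of this machinery were taken by symbol from the deposited count tables: the polymerase subunits Polr2a to Polr2m, the Gtf2a, Gtf2b, Gtf2e, Gtf2f and Gtf2h genes, Tbp, and the Taf genes numbered up to 15 with their b and l forms, without pseudogenes. This gave 45 genes of the 46072 in the tables. RNA was measured in mouse embryos at the 4-cell stage. A control group of 3 libraries was compared with 3 libraries of embryos injected as zygotes with siRNA against Son, which encodes a nuclear speckle protein that acts in pre-mRNA splicing. The labels state neither what the controls received nor the strain, and they give no number of embryos and no litter for a library. The p-values below therefore speak of the spread among these 6 libraries, which may be technical.

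At a promoter, TFIID, made of TBP and the TBP-associated factors (TAFs), binds the DNA around the start site, and TFIIA and TFIIB join it. The polymerase arrives with TFIIF, and TFIIE and TFIIH complete the complex; TFIIH opens the DNA and, through its kinase module, phosphorylates the tail of the largest polymerase subunit. Several TAFs also sit in SAGA, a histone acetyltransferase complex, and a few TAFs have paralogs that are known from germ cells. In the early mouse embryo this machinery is first inherited from the oocyte and then made from the embryo's own genome, whose main activation comes before the stage studied here.

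The start regions of these genes were themselves CpG-rich at the median, with a wide range. RefSeq (GRCm38.p6) gave 47 start sites for 38 of the 45 genes; Gtf2e2, Polr2d, Polr2g, Polr2k, Taf2, Taf4b and Taf7 had no entry in the table used. In the 250 bases before the start, the members' regions held a median of 20 CpG dinucleotides (range 3 to 43). Over all 32851 regions the median was 6 (range 0 to 56). The median G+C content was 58.4% for members against 52.4% for all. The TATAAA word, the core of the TBP binding site, was found on either strand in 9 of the 47 member regions (19.1%), against 12.4% of all regions. The GC box word GGGCGG was in 59.6% of member regions and 32.7% of all, the E-box CACGTG in 21.3% and 6.02%, the ETS word CCGGAAG in 21.3% and 6.91%, and CCAAT in 25.5% and 33.8%. No match of one word overlapped a match of another in the member regions. These are letter matches, not measured binding. The regions of 4 genes that the results return to are shown, 5′ to 3′ on the gene's strand, with each TATAAA word, GC box and E-box, on either strand, in capitals. They are Polr2a, the largest subunit (minus strand, chr11:69758634-69758883), Polr2e, a subunit shared by polymerases I, II and III (minus strand, chr10:80039660-80039909), Taf6, a histone-fold TAF (minus strand, chr5:138187452-138187701), and Taf7l, a paralog of Taf7 known from germ cells (minus strand, chrX:134476491-134476740).
Polr2a: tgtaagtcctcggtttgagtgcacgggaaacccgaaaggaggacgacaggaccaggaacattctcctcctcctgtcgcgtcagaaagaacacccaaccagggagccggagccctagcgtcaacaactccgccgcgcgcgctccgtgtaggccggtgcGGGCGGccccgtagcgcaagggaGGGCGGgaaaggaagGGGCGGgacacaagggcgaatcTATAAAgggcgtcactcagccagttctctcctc
Polr2e: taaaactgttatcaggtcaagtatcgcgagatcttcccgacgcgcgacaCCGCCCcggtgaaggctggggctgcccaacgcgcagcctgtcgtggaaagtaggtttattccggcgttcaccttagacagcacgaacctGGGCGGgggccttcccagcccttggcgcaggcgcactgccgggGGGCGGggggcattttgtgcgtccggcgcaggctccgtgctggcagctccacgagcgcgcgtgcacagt
Taf6: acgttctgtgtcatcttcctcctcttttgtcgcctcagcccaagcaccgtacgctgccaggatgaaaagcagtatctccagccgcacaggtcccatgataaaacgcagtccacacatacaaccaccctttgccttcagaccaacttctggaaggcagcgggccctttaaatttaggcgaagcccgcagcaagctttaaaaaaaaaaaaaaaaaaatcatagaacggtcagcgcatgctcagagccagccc
Taf7l: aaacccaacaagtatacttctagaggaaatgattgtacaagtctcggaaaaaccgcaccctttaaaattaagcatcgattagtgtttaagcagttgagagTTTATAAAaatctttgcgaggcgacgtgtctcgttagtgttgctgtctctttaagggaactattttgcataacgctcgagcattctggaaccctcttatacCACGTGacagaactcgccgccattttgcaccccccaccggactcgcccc
Polr2a had a TATAAA that begins 33 bases before the start and 3 GC boxes. Polr2e had 3 GC boxes and no TATAAA. Taf7l had overlapping TATAAA words on opposite strands, 150 and 148 bases before the start, and a CACGTG 49 bases before it. The Taf6 region held none of the 3 words. The G+C content of Taf6 was 50% with 11 CpG and that of Taf7l 44.8% with 14 CpG, both below the G+C median of all regions.

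Facts of the libraries bear on what follows. Total estimated counts ranged from 104634855 to 118865650 units per library. The members took 0.459%, 0.487% and 0.440% of them in controls and 0.510%, 0.508% and 0.525% after siRNA, so each siRNA library lay above each control. These shares use no scaling factor. Without one, the median log2 fold change (siRNA over control) was 0.21 for the members and 0.31 for all tested genes, so the rise was not particular to the members. The TMM factors that edgeR gave were 0.858, 1.05 and 0.810 in controls and 1.16, 1.02 and 1.15 after siRNA. Son had 249, 322 and 332 CPM in the controls and 41, 28.0 and 25.1 CPM after siRNA (CPM, counts scaled to library size with edgeR's TMM factors), which edgeR's quasi-likelihood test gave as a log2 fold change of -3.26 (SE 0.272, adjusted p = 0.00991). The early embryo markers summed to 497 to 1128 CPM in controls and 731 to 1087 CPM after siRNA, with 0 of 8 at 0 counts throughout. Dppa3 alone reached 1026 CPM in 1 library, so a single gene made up most of that sum. Markers of cumulus and granulosa cells summed to at most 0.713 CPM (5 of 9 at 0 in all libraries), of sperm to at most 1.14 CPM (2 of 6 at 0) and of blood to 8.96 to 14.0 CPM in controls and 9.21 to 10.97 CPM after siRNA (2 of 6 at 0). The control libraries stood further from each other than the siRNA libraries did: the SD of log2 CPM had a median of 0.424 over control libraries and 0.216 over siRNA libraries among 6079 genes with a mean of 10 CPM or more, and of 0.416 and 0.191 among the 45 members.

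Compared per length, the members lay over more than 2 orders of magnitude (TPM, which scales each count by transcript length and then by the library, here with exon-union lengths of GENCODE vM21). Among subunits that belong to polymerase II alone, Polr2d and Polr2j were the most abundant in controls, with 339 ± 70.1 and 268 ± 62.1 TPM (SD, n = 3). Polr2d forms the stalk of the polymerase with Polr2g, which had 193 ± 22.8 TPM. The second-largest subunit Polr2b, which builds the active site with Polr2a, had 141 ± 28.9 TPM, and Polr2c, an assembly subunit, had 118.6 ± 36.7 TPM. Polr2m, the Gdown1 protein that associates with the polymerase, had 31.2 ± 26.4 TPM, and the small subunit Polr2i had 8.50 ± 6.77 TPM. Polr2a, which carries the catalytic centre and the C-terminal tail, had 1.49 ± 0.674 TPM in controls and 1.305 ± 0.559 TPM after siRNA.

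The transcript of the largest subunit was thus far below its partner's in every library. Polr2a had 407, 747 and 494 units in controls and 688, 374 and 448 units after siRNA. The TPM of Polr2b was 75.6 to 117 times that of Polr2a in controls and 76.9 to 136 times after siRNA, so the groups overlapped. The ratio of the control means was 94.8, and it was 95.5 when lengths were the median of each gene's protein-coding transcripts. Among 1878 tested genes with exon unions of 6000 to 8000 bases, 53.8% had a higher control TPM than Polr2a, and their median was 1.88 TPM.

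The general factors spread as widely. The TFIIF pair had 182 ± 82.3 TPM for Gtf2f1 and 267 ± 110 TPM for Gtf2f2 in controls. TFIIE was uneven, with 224 ± 28.2 TPM for Gtf2e2 and 5.30 ± 2.39 TPM for Gtf2e1, which encode the small and the large chain of one dimer. TFIIB (Gtf2b, which links TBP to the polymerase) had 19.1 ± 3.66 TPM, and the TFIIA genes Gtf2a1 and Gtf2a2 had 24.5 ± 12.4 and 41.7 ± 3.26 TPM. In the core of TFIIH, Gtf2h1 had 176 ± 47.6 TPM, Gtf2h2 95.3 ± 15.5 TPM, Gtf2h5 46.0 ± 7.18 TPM, Gtf2h3 12.4 ± 2.94 TPM and Gtf2h4 3.49 ± 2.07 TPM. Of all 45 members, the TFIID histone-fold gene Taf13 was highest in controls by this length, with 378 ± 59.8 TPM, and Taf7l was lowest with 0.992 ± 0.628 TPM.

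Apart from the paralogs and SAGA's Taf6l, TFIID genes ranged from Taf13 down to Taf10, at 4.95 ± 1.68 TPM. The scaffold Taf1 had 19.9 ± 5.90 TPM and Tbp 15.03 ± 3.18 TPM. Levels between genes depend on the length used: with the median length of protein-coding transcripts, 18 of 45 members moved by more than 1.5 times, Tbp by 8.37 times, while the order of the members kept a Spearman rho of 0.92 (a description over these 45 genes in the same libraries). Tbp has an exon union of 13576 bases, of which 19% overlaps Pdcd2. No difference between neighbours in this order was tested.

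**Figure D1:**
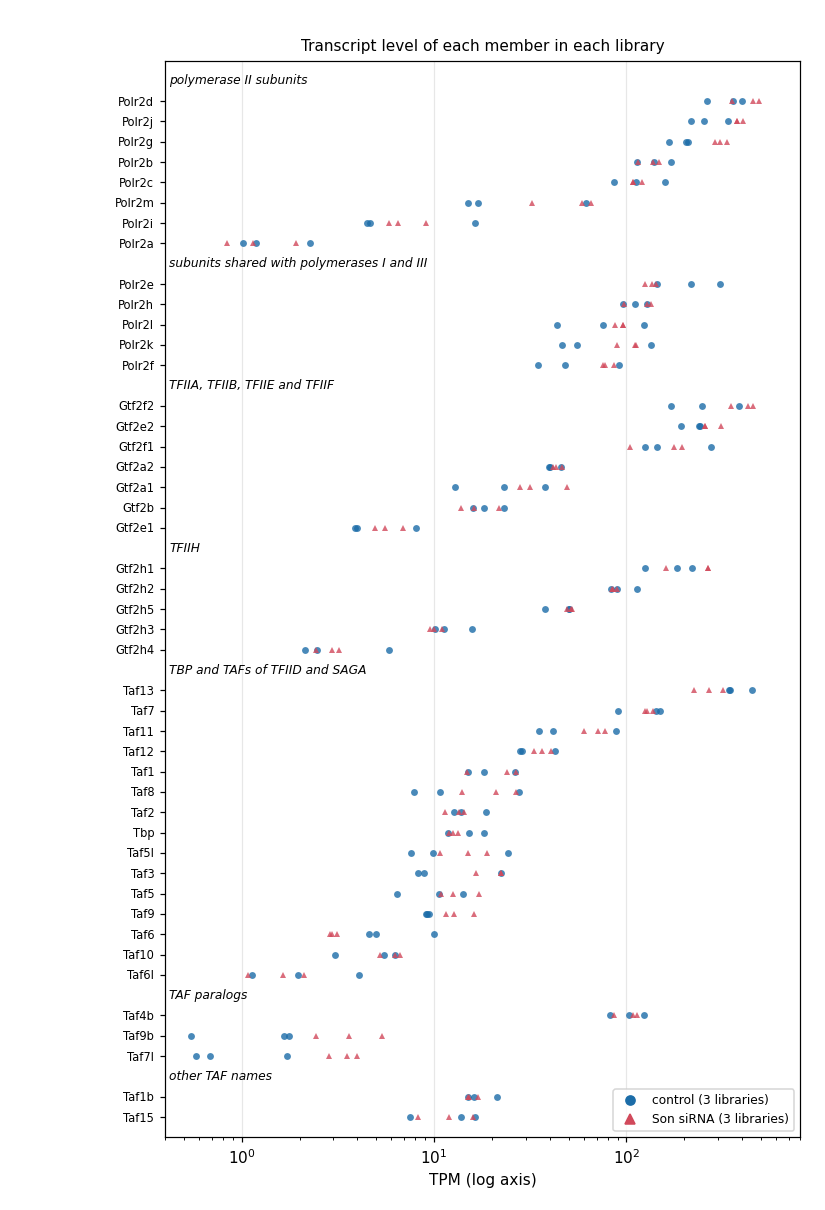
TPM of each of the 45 members in each library on a log axis, grouped by role and ordered by control mean, with circles for the 3 control and triangles for the 3 Son siRNA libraries. Polr2a lies near 1 TPM in all 6 libraries while Polr2b lies above 100 in each of them, and the points of both groups intermix for most members.

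The TAF paralogs were present in unequal amounts. Taf4b, the Taf4 paralog known from the ovary, had 103 ± 20.7 TPM in controls and 102 ± 14.4 TPM after siRNA. Its partner is listed under the symbol Taf4a and so is no member; the Taf4b level was 10.7 to 25.1 times that of Taf4a in controls and 9.68 to 16.9 times after siRNA. Taf7 stood 52.8 to 246 times above Taf7l in controls and 34.4 to 44.2 times above it after siRNA, without overlap. Taf9, which is shared by TFIID and SAGA, stood 5.20 to 16.8 times above Taf9b in controls and 2.98 to 5.24 times after siRNA. The groups just overlapped. Of the exonic bases of Taf9, 73.8% are also those of Ak6, and the reads carry no strand. Ak6 had 457 ± 38.2 TPM in controls, against 9.24 ± 0.124 TPM for Taf9. How reads from the shared bases were divided was not tested, so the Taf9 level is uncertain. Taf5 and its SAGA paralog Taf5l were level, at 0.435 to 1.43 times in controls and 0.841 to 1.003 times after siRNA. Taf6 stood 2.34 to 4.42 times above its SAGA paralog Taf6l in controls and 1.37 to 2.75 times after siRNA.

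The groups were then compared for the abundance of each of these transcripts. No member passed the test over all genes: 0 of 45 were higher and 0 lower at an adjusted p under 0.05 by edgeR, where 0.989% of the 17788 tested genes were called (0.0899% higher and 0.899% lower). All 45 members passed the filter on low counts. At an unadjusted p under 0.05 edgeR had 5 members (11.1%), against 14.7% of all tested genes; 2 were higher (5.88% of all genes) and 3 lower (8.86% of all genes). DESeq2's Wald test on the same genes called 3 members (6.67%), against 6.90% of all, with 1 higher (2.28% of all genes) and 2 lower (4.63% of all genes). These shares were near or below those of all genes. The libraries hold whole embryos, so fewer cells and less RNA per cell cannot be told apart.

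For most members the data set limits to any difference. The 95% interval of the log2 fold change lay inside -1 to 1, within a 2-fold change either way, for 25 of 45 members (55.6%). It did so for 15.8% of all tested genes, which include many at lower counts. At a mean of 10 CPM or more it did so for 64.1% of the 39 members and 42.7% of all genes. For the other 20 of the 45 members the interval reached a 2-fold difference or more. Fold changes ran from -1.27 (Taf6) to 1.67 (Taf7l), with a median of -0.07 for members and 0.02 for all tested genes. At a mean of 10 CPM or more the medians were -0.05 for 39 members and -0.10 for 6079 genes. Below 0 lay 27 members and above it 18; at 10 CPM or more, 59.0% of the members and 57.7% of all genes lay below 0. Of the 45, 20 changed sign in at least 1 of 12 alternative edgeR fits, 5 of them with total counts alone. Total counts in place of TMM moved the median of all genes to 0.31 and that of the members to 0.21. For 10 members (22.2%) the CPM ranges of the groups were apart, against 23.7% of all tested genes; 8 were lower after siRNA (11.6% of all genes) and 2 higher (12.1% of all genes). At 10 CPM or more 20.5% of the 39 members were apart and lower, against 19.0% of all such genes. Of the 10 members apart in CPM, only Polr2e, Taf6 and Taf7l were also apart in TPM, which uses no TMM factor. Polr2e was so by a narrow margin, with a lowest control of 143.3 and a highest siRNA library of 142.6 TPM. Members that overlapped in CPM were apart in TPM as well: Polr2g, Polr2j, Gtf2e2, Taf9 and Taf9b were higher after siRNA and Taf13 lower. Which direction prevailed among separated members thus depended on the scaling. The share of all genes apart in TPM was not computed.

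**Figure D2:**
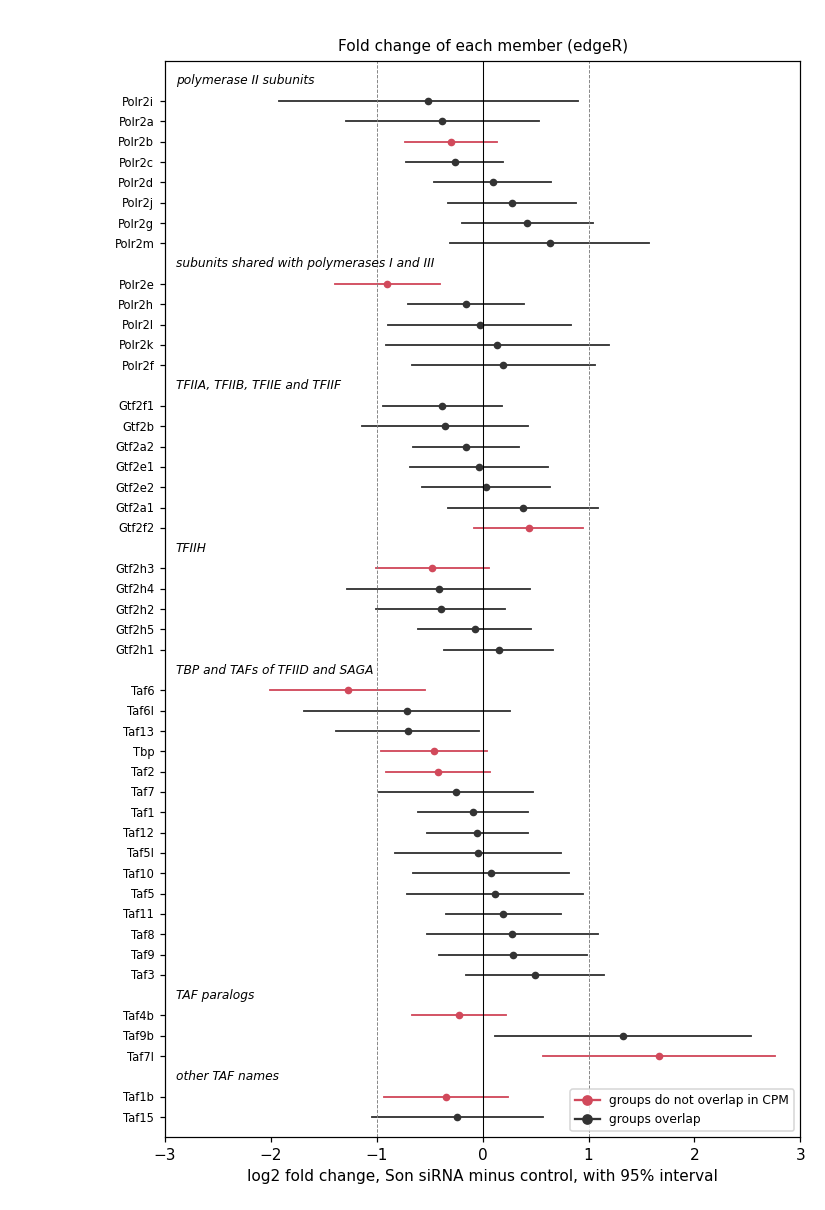
Log2 fold change (Son siRNA minus control) of each member with its 95% interval from edgeR, grouped by role; dashed lines mark a 2-fold change and red marks members whose groups do not overlap in CPM. Intervals of 25 members lie between the dashed lines, and those of Taf6, Taf13, Polr2e, Taf9b and Taf7l exclude 0 before adjustment.

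**Figure D3:**
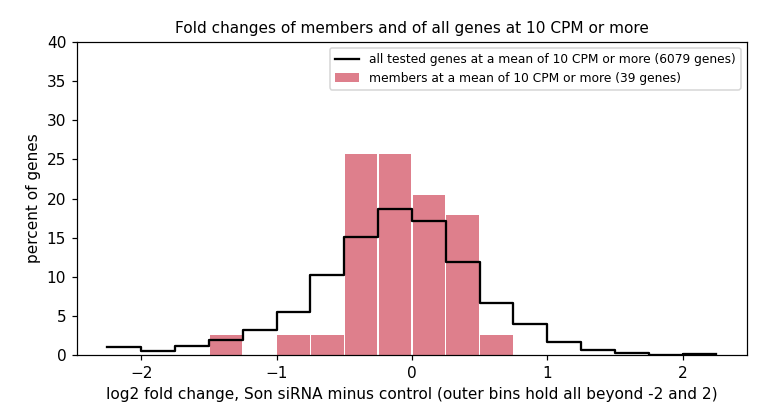
Percent of genes in bins of log2 fold change for the 39 members (bars) and the 6079 genes (line) with a mean of 10 CPM or more. Members fill the bins between -0.5 and 0.5 most, and 1 of them, Taf6, lies below -1.

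Among subunits of polymerase II alone, 0 of 8 passed edgeR's test, with 0 at an unadjusted p under 0.05 and 0 by DESeq2. Polr2b had 311, 329 and 397 CPM in controls and 288, 287 and 267 CPM after siRNA. All siRNA libraries thus lay below all controls, by a small margin (log2 -0.30, SE 0.192, edgeR adjusted p = 0.533). Polr2a had 4.24, 6.58 and 5.13 CPM in controls and 5.68, 3.19 and 3.38 CPM after siRNA, and the groups overlapped (log2 -0.38, 95% interval -1.29 to 0.53). Polr2g, of the stalk, had 150, 85.6 and 159 CPM in controls and 149, 205 and 175 CPM after siRNA, with control 2 the lowest (log2 0.42, edgeR adjusted p = 0.538). The log2 fold changes of Polr2c, Polr2d, Polr2i, Polr2j and Polr2m were -0.26, 0.09, -0.51, 0.28 and 0.63. Polr2i shares 26.8% of its exonic bases with Tbcb, Polr2c 18.1% with Dok4 and Polr2j 15.9% with Lrwd1.

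The 5 subunits that polymerases I, II and III share had the widest spread among controls of all the role groups. Polr2e had 340, 337 and 235 CPM in controls and 152, 178 and 159 CPM after siRNA, so every siRNA library lay below every control. Its log2 fold change was -0.90 (SE 0.219, 95% interval -1.39 to -0.40) with an edgeR adjusted p of 0.0976 and a DESeq2 adjusted p of 0.00904. Polr2h had 113, 68.6 and 89.01 CPM in controls and 80.04, 78.1 and 84.7 CPM after siRNA, with all siRNA values inside the range of the controls (log2 -0.16, edgeR adjusted p = 0.840).

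Control 1 was the highest of all 6 libraries for each of the 5 shared subunits. Polr2f had 140 CPM in control 1 and 51.1 and 55.6 CPM in controls 2 and 3, against 81.8, 107 and 93.3 CPM after siRNA. Polr2k, a zinc-binding subunit, had 49.3, 14.2 and 17.7 CPM in controls and 23.2, 37.4 and 28.9 CPM after siRNA. Polr2l had 120, 51.5 and 44.0 CPM in controls and 59.9, 84.8 and 66.7 CPM after siRNA. For Polr2f, Polr2k and Polr2l the siRNA libraries thus lay between control 1 and the other two controls, and their log2 fold changes were 0.20, 0.14 and -0.03. Over the 5 genes the SD of log2 CPM had a median of 0.777 among controls and 0.197 among siRNA libraries. Over all 45 members control 1 was the highest library for 14 and the lowest for 11, and over all tested genes it was the highest for 21.7% and the lowest for 26.5%. Of their 100-base stretches, 15.5% for Polr2k, 12.3% for Polr2l and 8.23% for Polr2h also occur in other genes.

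**Figure D4:**
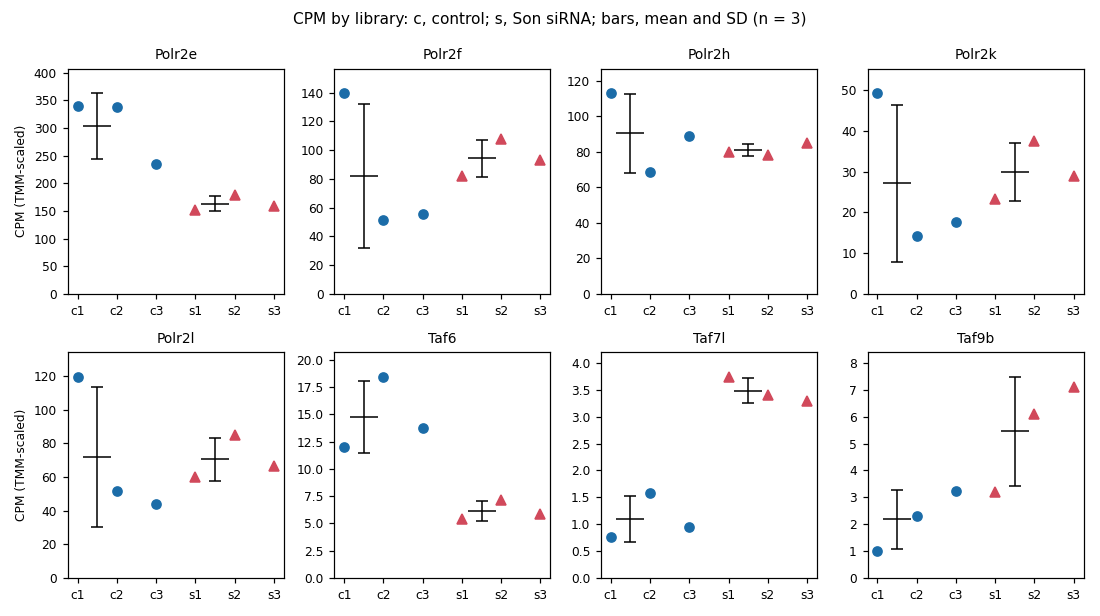
CPM in each library for the 5 shared subunits and for Taf6, Taf7l and Taf9b, with axes from 0, circles for controls, triangles for Son siRNA and bars for mean and SD (n = 3). Control 1 tops all 5 shared subunits; Polr2e and Taf6 are lower and Taf7l higher in each siRNA library than in any control.

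Of the 7 genes of TFIIA, TFIIB, TFIIE and TFIIF, 0 passed edgeR's test, 0 had an unadjusted p under 0.05 and DESeq2 called 0. Gtf2f2, the small chain of TFIIF, had 146, 233 and 222 CPM in controls and 262, 274 and 278 CPM after siRNA. All siRNA libraries lay above the controls (log2 0.44, SE 0.227, edgeR adjusted p = 0.422). Its partner Gtf2f1 had 125.4, 195 and 153 CPM in controls and 127, 95.7 and 141 CPM after siRNA, and its groups overlapped (log2 -0.38, edgeR adjusted p = 0.539). The 2 chains of TFIIF thus had fold changes of opposite sign, and neither passed the test. Gtf2a1, Gtf2a2, Gtf2b, Gtf2e1 and Gtf2e2 had log2 fold changes of 0.38, -0.16, -0.36, -0.03 and 0.03.

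Of the 5 TFIIH genes, 0 passed edgeR's test, 0 had an unadjusted p under 0.05 and DESeq2 called 0. Gtf2h3, which encodes the p34 subunit, had 41.9, 40.8 and 39.2 CPM in controls and 29.0, 32.3 and 26.4 CPM after siRNA. Both groups were tight in CPM and did not overlap there (log2 -0.48, 95% interval -1.01 to 0.06, edgeR adjusted p = 0.393). Gtf2h2, the p44 subunit gene, had 228, 172 and 323 CPM in controls and 163, 221 and 166 CPM after siRNA, with overlap (log2 -0.39, edgeR adjusted p = 0.561). Gtf2h1, Gtf2h4 and Gtf2h5 had log2 fold changes of 0.15, -0.41 and -0.07.

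In the group of TBP and the TAFs of TFIID and SAGA, 0 of 15 passed edgeR's test. At an unadjusted p under 0.05 edgeR had 2, both lower (8.86% of all genes), and DESeq2 called 1 lower (4.63% of all genes). Taf6 (chromosome 5, 138178617 to 138187451) had 12.04, 18.5 and 13.7 CPM in controls and 5.35, 7.10 and 5.85 CPM after siRNA. The highest siRNA library was below the lowest control. The means were 14.7 ± 3.33 and 6.10 ± 0.900 CPM (SD, n = 3), a log2 fold change of -1.27 (SE 0.324, 95% interval -2.005 to -0.54) with an edgeR adjusted p of 0.108 and a DESeq2 adjusted p of 0.00299. Of the exonic bases of Taf6, 26.5% overlap Ap4m1, and the reads carry no strand. Ap4m1 itself had 5.68, 8.60 and 3.27 CPM in controls and 5.25, 2.12 and 3.04 CPM after siRNA (adjusted p = 0.547 by edgeR at a log2 fold change of -0.75); its part in the Taf6 value was not tested.

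Taf13, which pairs with Taf11 in TFIID, had 828, 448 and 662 CPM in controls and 297, 534 and 355 CPM after siRNA. The library siRNA 2 lay above control 2, so the groups overlapped in CPM (log2 -0.71, SE 0.297, edgeR adjusted p = 0.312). In TPM they did not overlap, with 447, 345 and 342 in controls and 226, 316 and 268 after siRNA. Taf11 had 134, 200 and 118.6 CPM in controls and 163, 178 and 177 CPM after siRNA, with a log2 fold change of 0.20. Tbp had 93.9, 101 and 127 CPM in controls and 71.1, 87.2 and 76.2 CPM after siRNA, without overlap (log2 -0.46, 95% interval -0.96 to 0.04, edgeR adjusted p = 0.381). Pdcd2, whose exons overlap those of Tbp, had the opposite sign, with 7.98, 21.2 and 9.41 CPM in controls and 31.9, 24.4 and 37.5 CPM after siRNA (adjusted p = 0.188 by edgeR at a log2 fold change of 1.28).

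Taf2, which helps TFIID to bind around the start site, had 56.1, 52.8 and 53.8 CPM in controls and 41.1, 41.8 and 38.6 CPM after siRNA. Its 6 CPM values formed tight groups without overlap, where edgeR gave a log2 fold change of -0.42 (SE 0.217) at an adjusted p of 0.416. In TPM the groups of Taf2 overlapped, with 13.9, 18.7 and 12.7 in controls and 14.3, 11.4 and 13.4 after siRNA. Taf3, whose PHD finger binds a trimethylated lysine of histone H3, had 31.0, 58.7 and 34.9 CPM in controls and 59.2, 56.8 and 59.6 CPM after siRNA, with control 2 among the siRNA values (log2 0.49, edgeR adjusted p = 0.488). Taf7 had 275, 123 and 304 CPM in controls and 190, 222 and 178 CPM after siRNA, again with the siRNA libraries inside the controls' range. Taf6l of SAGA had 5.78, 8.39 and 3.48 CPM in controls and 4.39, 2.90 and 3.46 CPM after siRNA, overlapping (log2 -0.72, edgeR adjusted p = 0.504). Taf5, Taf5l, Taf7 and Taf9 had log2 fold changes of 0.12, -0.04, -0.25 and 0.29. Taf1, Taf8, Taf10 and Taf12 had -0.09, 0.28, 0.08 and -0.05, and for Taf1, Taf10 and Taf12 the 95% interval stayed inside a 2-fold change. Taf10 shares 45.9% of its exonic bases with Ilk.

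Of the 3 TAF paralogs 0 passed edgeR's test. By edgeR 2 were higher at an unadjusted p under 0.05 (5.88% of all genes), with 1 called higher by DESeq2 (2.28% of all genes). Taf7l (chromosome X, 134460118 to 134476490) had 73, 180 and 91 units in controls and 454, 399 and 437 units after siRNA. That is 0.760, 1.58 and 0.945 CPM in controls and 3.75, 3.41 and 3.30 CPM after siRNA, with each siRNA library above each control. The log2 fold change was 1.67 (SE 0.484, 95% interval 0.57 to 2.76), with an edgeR adjusted p of 0.145 and a DESeq2 adjusted p of 0.0215. In controls, 38.9% of the tested genes had a lower TPM than Taf7l.

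Taf9b had 1.01, 2.31 and 3.22 CPM in controls and 3.20, 6.09 and 7.12 CPM after siRNA. In CPM the lowest siRNA library and the highest control met, so the groups overlapped there, though not in TPM. The log2 fold change was 1.33 (SE 0.534, edgeR adjusted p = 0.292), and it was 0.99 without control 1. Taf4b, the abundant one of the 3, had 247, 261 and 325 CPM in controls and 243, 237 and 232 CPM after siRNA. The groups were next to each other without overlap, and the 95% interval of -0.67 to 0.22 stayed within a 2-fold change.

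The symbol rule also took in Taf1b, a subunit of the polymerase I factor SL1, and Taf15, an RNA-binding protein. Taf1b had 24.8, 22.9 and 24.3 CPM in controls and 18.6, 21.4 and 16.4 CPM after siRNA, without overlap (log2 -0.35, edgeR adjusted p = 0.598). Taf15 had 23.7, 19.6 and 13.4 CPM in controls and 19.3, 18.6 and 10.1 CPM after siRNA, with overlap (log2 -0.24, edgeR adjusted p = 0.836). Neither had an unadjusted p under 0.05, and DESeq2 called 0 of the 2.

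Across the 45 members, genes with more exons or longer exon unions had slightly lower fold changes. Spearman's rho with the log2 fold change was -0.33 for the number of exons and -0.31 for exon-union length. Over 17658 tested genes with an annotation it was -0.04 and 0.05. These are descriptions, since all genes come from the same 6 libraries.

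Genes that work with the polymerase and are no members were listed in 8 groups, 123 symbols in all, of which 118 were in the tables and 116 were tested. By edgeR 0 were higher (0.0899% of all tested genes) and 1 lower (0.899% of all). DESeq2 called 2 higher (2.28% of all tested genes) and 4 lower (4.63% of all). As shares of the 116, these counts were near or below those of all genes. DESeq2's calls all fell in the pausing and elongation list (2 higher and 2 lower of 29) and the assembly and import list (2 lower of 14). Within these lists such shares lay above those of all genes, on few genes in lists chosen with earlier results known. The 1 gene called by edgeR was Supt5, which encodes the pausing and elongation factor that holds the paused polymerase with NELF. Supt5 had 72.9, 84.2 and 56.4 CPM in controls and 30.5, 21.7 and 26.2 CPM after siRNA. It fell from 71.2 ± 14.0 to 26.2 ± 4.40 CPM (SD, n = 3), with -1.44 (SE 0.264) as log2 fold change and 0.0462 as adjusted p by edgeR. DESeq2 gave an adjusted p of 2.1e-05. With 1 library left out the log2 fold change of Supt5 stayed between -1.30 and -1.58. Without control 1, 2 or 3 the adjusted p by edgeR was 0.0945, 0.0547 or 0.0570, and without siRNA library 1, 2 or 3 it was 0.277, 0.183 or 0.293, in fits that called 0 of all genes.

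Other pausing and elongation genes included Paf1, of the PAF elongation complex, at 107 ± 45.9 CPM in controls and 35.7 ± 2.19 CPM after siRNA (adjusted p = 0.0749 by edgeR at a log2 fold change of -1.59, and called lower without control 1). DESeq2 called Paf1 lower with all libraries (adjusted p = 0.000552). By DESeq2 the cyclin of the elongation kinase Ccnt2 was called higher (log2 0.98) together with the low-abundance elongation gene Ell3 (0.742 ± 0.274 and 3.43 ± 0.975 CPM, log2 2.21). In that list of 29 tested genes edgeR called 1 lower (0.899% of all genes) and 0 higher (0.0899% of all genes). DESeq2 called 2 lower there (4.63% of all genes) and 2 higher (2.28% of all genes). Of 14 genes for polymerase assembly and import edgeR called 0. DESeq2 called 2 of them lower (4.63% of all genes) and 0 higher (2.28% of all genes). The 2 were Ruvbl2, an ATPase of the assembly chaperone (37.0 ± 15.7 and 9.38 ± 2.95 CPM, log2 -1.98, edgeR adjusted p = 0.0564), and Wdr92. Paf1, Ccnt2, Ell3 and Wdr92 were named after their values were seen.

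The remaining 6 lists had 0 members past edgeR's or DESeq2's threshold. Of their 73 tested genes, 9 (12.3%) had an unadjusted p under 0.05 by edgeR, against 14.7% of all tested genes, so the genes named here stand only for the smallest p of each list. The gene with the smallest p among the other TFIIH subunits was the helicase gene Ercc2 (log2 -1.52), among TBP paralogs and regulators Dr1 (log2 -0.30), and among genes for the phosphatases and binders of the polymerase tail Ssu72 (log2 0.39). It was Ccdc101 for the other SAGA subunits (log2 -0.65), Polr1e for polymerase I and SL1 (log2 -0.58), and Polr1c for polymerase III with the subunits it shares with polymerase I (log2 -0.69). The 116 genes had a median log2 fold change of -0.03, against 0.02 for all tested genes.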

How the data were processed

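The authors deposited 1 table per library with whole-number estimated counts per gene, not normalized. The GRCm38 build, StringTie 1.3.3b and HISAT2 2.0.5 were used, per the submitters' processing notes. How the counts were extracted, on which annotation and with which filters, is not given in the sources used here. Per the labels' protocols, embryos were lysed and cDNA was made with Smart-Seq2, which marks no strand. Groups and replicate numbers come from the sample titles. In values of 1 to 40 units, multiples of 4 made up 26.4% to 32.4% per library (25% in evenly spread values), so what 1 read pair is worth is not settled, and counts divided by 4 were only an alternative.

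Counts were fitted as deposited with edgeR 4.0.16 in R 4.3.3: filterByExpr, TMM, glmQLFit, glmQLFTest and Benjamini-Hochberg adjustment over 17788 genes, threshold 0.05. SE is the log2 fold change over the root of its F statistic. TPM used GENCODE vM21 exon unions, which matched 45223 of 46072 genes. Alternatives were DESeq2 1.42.0, its size factors, total counts, other filters, counts divided by 4, the replicate block and leaving out each library. Members and gene lists were chosen with earlier results of these data known. Genes given per library were the 2 of each role with the smallest p, Polr2a, Tbp and the TAF paralog pairs; others given so, and neighbouring genes, were chosen after their values were seen. Of the related lists, genes past the threshold and the smallest p of each were named. The test was checked on simulated counts.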

Additional observations from a re-analysis of the deposited data

How the results depend on the processing

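Of the 286 values of the 22 members given in full under 13 alternatives, 268 kept their sign and side of the threshold, and 3 passed it, all with DESeq2 (Polr2e -0.90, Taf6 -1.28, Taf7l 1.66). With DESeq2's test 1 member was higher and 2 lower, against 0 and 0 in each edgeR fit. Signs turned for 15 values: with total counts Polr2b 0.0016, Polr2h 0.16, Taf15 0.034, Taf4b 0.079, Taf5l 0.21 and Taf7 0.090; with the replicate block Taf5l 0.028; without control 1 Polr2h 0.040 and Taf5 -0.10; without control 2 Taf5 -0.031 and Taf5l 0.34; without siRNA library 1 Taf5 -0.012; without siRNA library 2 Taf5l 0.047; and without siRNA library 3 Taf15 0.0077 and Taf5l 0.00072. With 1 library left out in turn, Polr2h ran from -0.32 to 0.040, Taf15 from -0.43 to 0.0077 and Taf5 from -0.10 to 0.58. The median of the members was 0.21 with total counts and ranged from -0.18 to 0.00072 when 1 library was left out.

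The number of genes called was 176 (90.9% lower), 1228 with DESeq2's test (67.0% lower), 42 with total counts, 100 with no filter, 288 with a filter of 50 units in 3 libraries, 330 with counts divided by 4, and 0 to 315 with 1 library left out (73.3% lower without control 2). Leaving out any siRNA library gave 0 calls by edgeR, with 1786, 2348 and 1733 genes at an unadjusted p under 0.05, of which 4, 4 and 3 were members. These 3 fits say nothing of how stable a call is. Related genes called numbered 6 with DESeq2's test, 0 with total counts, 0 with no filter, 2 with the stricter filter, 3 with counts divided by 4 and 0 to 1 with a library left out. The log2 fold change of Son was -3.12 to -3.50 with 1 library left out and was not past the threshold without any one siRNA library (adjusted p = 0.0648, 0.0709 and 0.136). The cause of these shifts was not tested.

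With the replicate number as a block, edgeR called 0 genes (1997 at an unadjusted p under 0.05), 0 related genes and not Son (log2 -3.29, adjusted p = 0.0617). Same-numbered libraries did not deviate together (r = -0.27, -0.33 and 0.02 over 6079 genes), so the numbers were not taken as pairs. Differently numbered libraries had r from -0.23 to 0.41, highest for control 1 with siRNA library 2, and the cause was not tested. Depth limits the 6 members under a mean of 10 CPM (Polr2a, Polr2i, Gtf2h4, Taf6l, Taf7l and Taf9b): the 95% interval of each reached a 2-fold difference or more.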
